A study of Mus musculus with 6 samples.

Results

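A set of 595 genomic regions, of the 74686 in the deposited count table, carried an open-chromatin peak in tumor-infiltrating CD8 T cells when helper CD4 T cells had been given and none when they had not. Members were chosen by the deposited peak calls, that is by measured values of these same libraries. A region was a member where a deposited peak overlapped it by 1 base or more in each of the 3 peak lists with CD4 T cells, and no peak of the 3 lists without CD4 T cells overlapped it. The members are 0.797% of the table. The opposite rule, a peak in all 3 lists without CD4 T cells and in none with them, held for 2680 regions, or 3.59%, and serves below as the opposite class.

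The cells were OT1 CD8 T cells, whose transgenic receptor recognises an ovalbumin peptide, recovered from B16-OVA-GP61 tumors by sorting on CD8 and the congenic marker CD45.1. B16 is a mouse melanoma line, here engineered with ovalbumin and GP61 as antigens. The groups were 3 libraries from tumors without SMARTA cells and 3 from tumors with them; SMARTA cells are CD4 T cells with a transgenic receptor for GP61. The labels give neither genotype, age nor sex of the tumor-bearing mice, nor whether replicates were separate mice or pools. Any call of a region therefore sets its difference only against the spread between these libraries. The sorted cells were frozen, thawed and profiled by ATAC-seq, in which a transposase cuts and tags DNA that nucleosomes leave accessible.

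CD8 T cells that meet antigen in a tumor for long pass into a dysfunctional state with its own chromatin landscape, whereas help from CD4 T cells is known to support effector function, trafficking and survival of CD8 T cells. Most accessible sites that differ between T cell states lie away from promoters, in enhancers bound by factors such as the RUNX, ETS and AP-1 families. A peak is a call against local background in 1 library, so a region without a peak still has reads.

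Of the members, 5 overlapped a promoter window of the RefSeq table, and only 1 of these, at Ltb4r1, was also among the 10 members with the smallest edgeR p. Ltb4r1 encodes the high-affinity receptor for leukotriene B4, a lipid chemoattractant that draws effector T cells into inflamed tissue. Its member, chr14:55765675-55766075, covered all 300 bases of the window, which runs from 250 bases before to 50 bases after the annotated start on the plus strand at chr14:55765712-55766011. The next sequence is the window at Gm29897, a predicted gene, at chr8:124055958-124056257 on the plus strand. It is shown for contrast, since its member also covered all 300 bases and it also holds RUNX letters, but the groups overlapped there. Both are RefSeq sequences of GRCm38.p6, 5′ to 3′, with matches to the RUNX, ETS and KLF or SP motifs in capitals.
Ltb4r1: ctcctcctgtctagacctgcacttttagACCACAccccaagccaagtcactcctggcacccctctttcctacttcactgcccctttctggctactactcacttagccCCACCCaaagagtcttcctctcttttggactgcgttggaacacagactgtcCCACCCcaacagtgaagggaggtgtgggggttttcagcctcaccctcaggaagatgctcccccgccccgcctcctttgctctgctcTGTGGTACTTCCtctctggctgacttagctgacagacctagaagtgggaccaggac
Gm29897: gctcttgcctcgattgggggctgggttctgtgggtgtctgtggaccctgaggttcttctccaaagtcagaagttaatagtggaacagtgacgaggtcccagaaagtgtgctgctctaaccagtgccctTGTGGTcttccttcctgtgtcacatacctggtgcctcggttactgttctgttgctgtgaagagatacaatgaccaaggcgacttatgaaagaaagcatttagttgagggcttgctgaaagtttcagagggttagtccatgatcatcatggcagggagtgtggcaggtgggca
The letters searched on both strands were TGTGGT for RUNX, GGAAGT for ETS and CCACCC for KLF and SP factors. In the Ltb4r1 window RUNX letters stood at bases 29 to 34 and 245 to 250, the ETS letters at 251 to 256 directly after the second RUNX match, and the KLF and SP letters at 108 to 113 and 159 to 164. The Gm29897 window held only the RUNX letters of these, at 129 to 134. Among 32817 distinct promoter windows of the same length, 16.8% held the RUNX letters, 23.8% the ETS letters and 31.5% those of KLF and SP, so each match alone is common. The AP-1 letters TGANTCA were in 7.81% of all windows and in 0 of the 5 windows that members overlapped. These matches describe letters and do not show binding.

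At the Ltb4r1 promoter, accessibility was 1.86, 1.81 and 1.80 log2 CPM (counts scaled to library size, on the log2 scale, with a prior count of 2) in replicates 1, 2 and 3 without SMARTA cells, and 3.09, 3.02 and 2.98 with them. The libraries of a group lay close together and the groups were far apart, with SDs of 0.03 and 0.06 (n = 3 each). The log2 difference from the fit over all regions, with SMARTA cells minus without, was 1.22 ± 0.18 (SE), and it ranged from 1.19 to 1.27 when any 1 library was left out. At the member with the Gm29897 window, which was assigned to Urb2 at a distance of 7.40 kb, the values were 1.19, 0.02 and 0.46 without and 0.94, 1.17 and 1.33 with SMARTA cells, a difference of 0.58 ± 0.32. Replicate 1 without SMARTA cells was above replicates 1 and 2 with them. The 3 other promoter windows that members overlapped belonged to predicted genes as well. Because the same libraries supplied the peaks that chose the members and the counts, every difference between the groups in a member is a description. Calls and ranks of members come from the fit over all regions, serve only to count and to choose examples, and are no evidence of a difference.

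**Figure D1:**
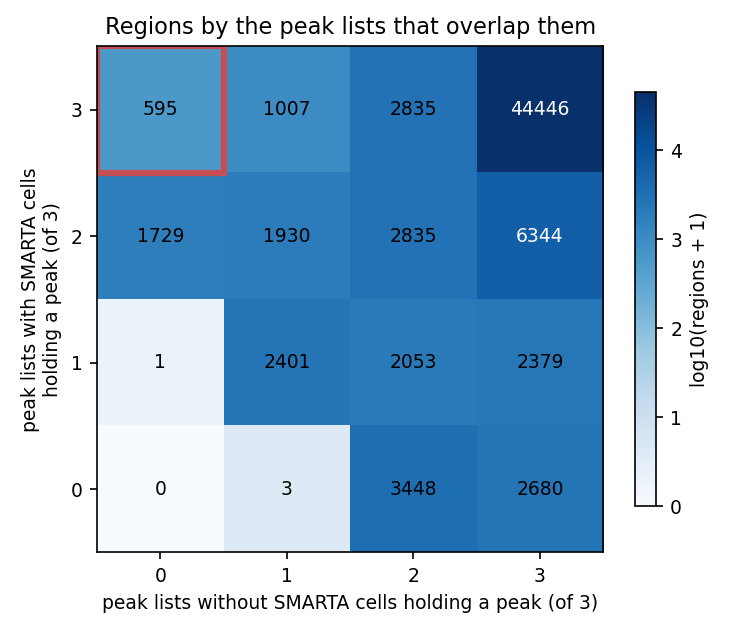
Number of regions by how many of the 3 peak lists without SMARTA cells (horizontal axis) and of the 3 lists with them (vertical axis) hold an overlapping peak, with shading for log10(regions + 1). The outlined cell at the upper left is the set of 595, far smaller than the 44446 regions with a peak in all 6 lists.

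The grid of regions by peak lists shows where the members stand. Peaks of all 6 lists overlapped 44446 regions, or 59.5% of the table. Just outside the rule lay 1007 regions with a peak in all 3 lists with SMARTA cells and in 1 list without. In 435 of them the exception was replicate 2, in 417 replicate 3 and in 155 replicate 1. Another 1729 regions had no peak in any list without SMARTA cells but were missed in 1 list with them. Of these, 1187 were missed in replicate 2 with SMARTA cells, which has the fewest peaks (65020) and counts (16595779) of the 6 libraries.

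Total counts over all regions ranged from 16595779 to 27182809 per library, with medians of 62 to 114 counts per region. Of CD8 T cell genes, the most accessible region of Cd8b1 was at 5.95 ± 0.16 log2 CPM without and 6.09 ± 0.11 with SMARTA cells (SD, n = 3), and that of Cd8a at 5.46 ± 0.07 and 5.10 ± 0.33. Summed over the 104 regions of the CD8 T cell markers, CPM was 1840 to 1907 without and 1597 to 1860 with SMARTA cells. Summed over the 13 regions of 5 melanoma genes, CPM was 268 to 289 without and 278 to 314 with SMARTA cells, while Tyr and Tyrp1 had no region. Over the 23 regions of CD4 T cell genes, 14 of them at Cd40lg, the sum was 203 to 234 without and 243 to 255 with SMARTA cells. The top Cd4 region was at 3.85 ± 0.11 and 3.80 ± 0.53. The sums were 82.7 to 114 and 65.5 to 84.3 for B cell genes, 186 to 203 and 167 to 196 for myeloid genes, 184 to 228 and 166 to 239 for dendritic cell genes, 517 to 557 and 448 to 554 for NK cell genes and 190 to 210 and 143 to 149 for stromal and endothelial genes. Whether other cells took part in the member values was not tested. In bulk libraries such as these, more cells with an open region and a wider opening in each cell cannot be told apart.

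Members held reads in both groups, also in the libraries without a peak there. What count a closed region would give was not estimated. The members held a median of 34, 32 and 32 counts in the libraries without SMARTA cells and of 40, 47 and 62 in those with them. On the log2 CPM scale the medians were 0.83, 0.40 and 0.50 without and 1.09, 1.54 and 1.27 with SMARTA cells. All 595 had at least 8 counts in every library, and all passed the filter on low counts. Together they took 0.141%, 0.118% and 0.124% of all counts without and 0.185%, 0.225% and 0.199% with SMARTA cells.

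**Figure D2:**
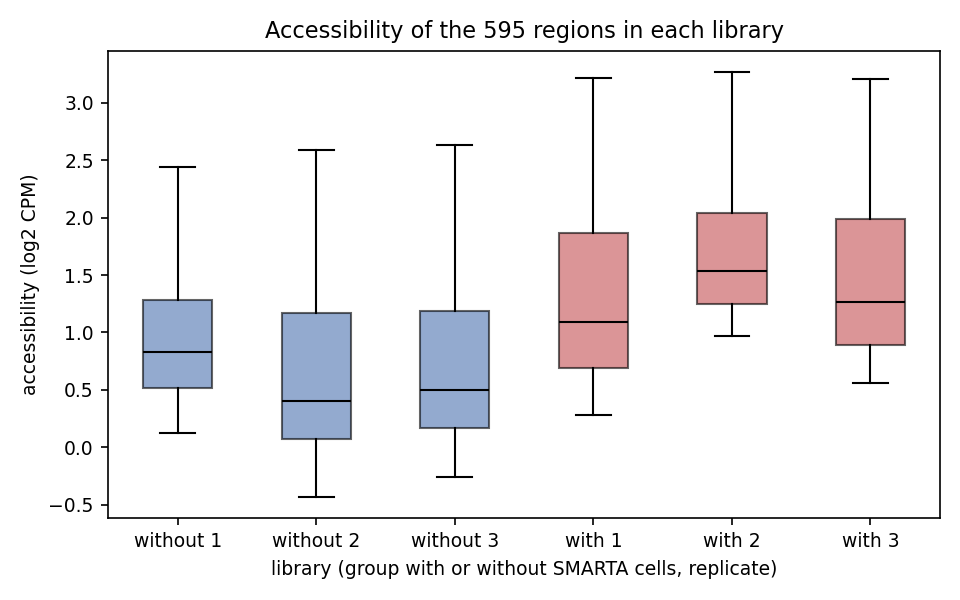
Accessibility of the 595 regions (log2 CPM, vertical axis) in each of the 6 libraries. The median over members was 0.40 to 0.83 in the libraries without SMARTA cells and 1.09 to 1.54 in those with them, and the distributions overlap widely.

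The plot of member accessibility by library also shows 1 library in each group apart from its partners. Replicate 1 was the highest of its group in 376 members (63.2%) without SMARTA cells, against 37.2% of all regions. Replicate 2 was the highest of its group in 386 members (64.9%) with SMARTA cells, against 39.4% of all regions. Each was the library of its group with the fewest counts and the fewest peaks (73012 and 65020). The part of depth in which regions became members was not tested. The median SD between libraries was 0.26 without and 0.31 with SMARTA cells in members, and 0.19 and 0.25 over all regions.

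The median log2 difference of the members was 0.71, with a middle range from 0.47 to 1.04 and extremes of -0.47 and 2.56, and over all regions the median was 0.01. The difference was at least 2-fold in 163 members and negative in 6. By edgeR's quasi-likelihood test with Benjamini-Hochberg adjustment over the table, 202 members (33.9%) were called opened, that is more accessible with SMARTA cells at a threshold of 0.05, and 0 were called closed. Among all regions 4.68% were called opened and 10.4% closed, 15.1% in either direction; since the rule used the same libraries, nothing is read from that gap. The count of opened members was 75 with replicate 2 of the tumors lacking SMARTA cells left out, 80 with their replicate 3 left out and 85 with replicate 3 of the other group left out. A core of 57 members was called opened in every one of the settings and left-out libraries tried, and 201 in none of them. In 368 members (61.8%) all 3 libraries with SMARTA cells lay above all 3 without, against 15.7% of all regions. In 226 the groups overlapped, and in 1, at Rgs16, the libraries with SMARTA cells lay below all others, against 18.5% of all regions.

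In the opposite class the median log2 difference was -1.43, and 1987 of its 2680 regions (74.1%) were called closed. The neighbouring classes sat nearer 0 than the members: the median was 0.46 both in the 1007 regions with a peak in 1 list without SMARTA cells and in the 1729 regions missed in 1 list with them. Their widest differences were 1.84 and 1.86, below the 2.56 of the members. An unassigned region at chr17:51407045-51407445, out of the rule for a single peak in replicate 3 without SMARTA cells, was at 1.53, 1.19 and 1.71 without and 3.08, 2.92 and 2.95 with them, a difference of 1.52 ± 0.20. Inside Hells, which encodes a lymphoid chromatin remodeller, chr19:38934748-38935148 was missed only in replicate 2 with SMARTA cells, and it was at 0.99, 0.48 and 0.73 without and 2.46, 1.66 and 2.36 with them, a difference of 1.52 ± 0.26. Regions 51.9 kb from Rad23b and 8.66 kb from Ftdc1 were likewise just outside, with differences of 1.54 ± 0.22 and 1.84 ± 0.28. Just inside the rule, by the weakest of their 3 peaks, were members in Psd4 (deposited −log10 p of 2.71, difference 0.40 ± 0.23), Malt1 (2.74, 0.71 ± 0.29) and Als2cl (2.81, 0.17 ± 0.27).

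The peaks that made the members were weak ones within their own lists. The median fold enrichment over local background, as the authors' peak caller gave it, was 2.98, 2.74 and 2.84 in the lists of replicates 1, 2 and 3 with SMARTA cells. The medians of the whole lists were 5.36, 4.43 and 4.82. In replicate 1, 332 members (55.8%) had a peak below the 25th percentile of its list, in replicate 2 289 (48.6%) and in replicate 3 292 (49.1%). Between 36 and 42 members lay above the 50th percentile in a list. The peaks were also narrow, with median widths of 231, 213 and 238 bases against 435, 411 and 444 over the lists.

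**Figure D3:**
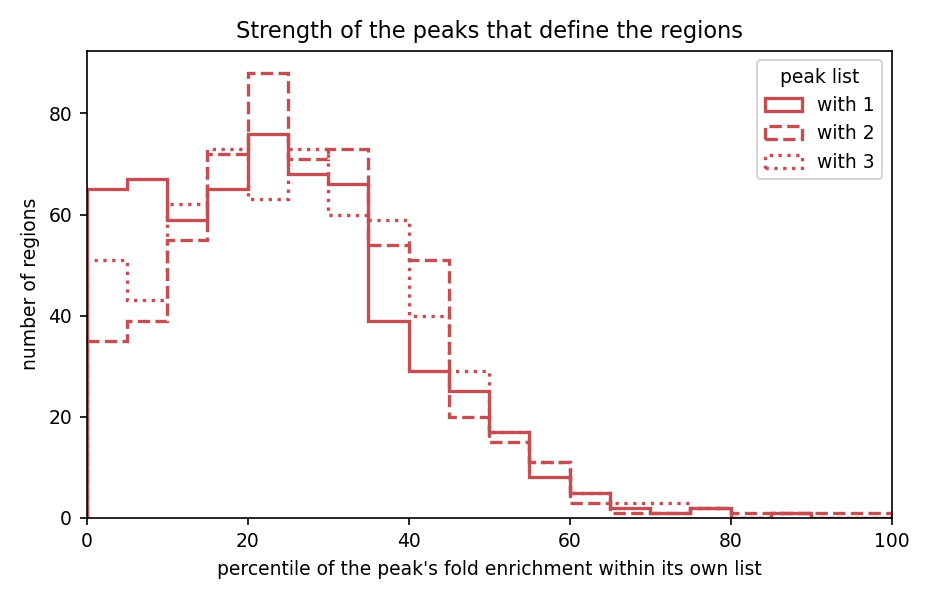
Number of members (vertical axis) by the percentile of their peak's deposited fold enrichment within its own list (horizontal axis), for the 3 lists with SMARTA cells. The median percentile was 23.3, 26.1 and 25.7 in replicates 1, 2 and 3, so most peaks sit in the lower part of each list.

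In each list the summit was read for the strongest peak overlapping a region. All 3 of these summits lay in the region in 558 members, with a median difference of 0.72. Of the 558, 195 were called opened, beside 33.9% of all members and 4.68% of all regions. In 33 members 1 or 2 of the summits did, with 7 called opened and a median of 0.53. In 4 members, at Ggta1, Sntb1, Miox and Capn1, none did. Each of these 4 regions overlapped 2 peaks in at least 1 list, and the weaker peak's summit was not read. Ggta1, which encodes an alpha-galactosyltransferase of the cell surface, had the strongest peaks of all members by mean percentile (76.7), with fold enrichments of 9.74, 12.4 and 10.7. Yet its region, chr2:35460756-35461156, was at 1.65, 1.17 and 1.47 without and 1.68, 1.25 and 1.29 with SMARTA cells. Those groups overlapped almost fully, and the nearest peak without SMARTA cells lay 4 bases from the region. For the members as a whole that nearest peak was at a median of 2.10 kb, within 500 bases in 117 members and beyond 10 kb in 87.

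Zfp704, a zinc finger gene, Lonrf3 and Zbtb16 followed among the strongest peaks. The Zfp704 member, 17.8 kb from the gene, was at 0.83, -0.10 and 0.62 without and 2.56, 1.84 and 2.52 with SMARTA cells (difference 1.93 ± 0.29). Its groups were apart by a full log2 unit. The Lonrf3 member had a difference of 1.45 ± 0.22. Zbtb16 encodes PLZF, a factor known from innate-like T cells, and its member was at 0.79, -0.16 and 0.37 without and 1.09, 2.80 and 1.33 with SMARTA cells. Here replicate 2 with SMARTA cells stood far above its partners, and the difference of 1.62 ± 0.46 was 0.90 without that library.

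The 10 members with the smallest p lay at 10 genes of different kinds. St8sia1 encodes the sialyltransferase that makes ganglioside GD3. Its member, chr6:142954841-142955241, inside the gene, was at 1.45, 1.06 and 1.49 log2 CPM without and 3.44, 3.27 and 3.93 with SMARTA cells, a difference of 2.27 ± 0.24. The lowest library with SMARTA cells was above the highest without by more than a log2 unit. A second member in St8sia1 differed less, by 0.66 ± 0.28, and of the gene's 35 regions 11 were called opened and 2 closed. The widest difference of any member, 2.56 ± 0.31, was inside Gfra2, which encodes a receptor for neurturin. That region, chr14:70961997-70962397, was at 1.13, 0.92 and 1.19 without and 2.90, 4.11 and 3.51 with SMARTA cells. Replicate 2 was the highest there, and the difference without it was 2.21.

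Car2 encodes a carbonic anhydrase that interconverts carbon dioxide and bicarbonate. The member 14.6 kb from it was at 0.79, 0.56 and 0.41 without and 2.19, 2.31 and 2.09 with SMARTA cells, a difference of 1.66 ± 0.21. Inside Jpt1 the values were 0.83, 0.98 and 1.02 without and 2.24, 2.85 and 2.43 with SMARTA cells (1.62 ± 0.22). In both regions the 3 libraries of a group were close and the groups apart. Near Mfsd6, a transporter-like gene, the values were 0.71, 0.63 and 0.93 without and 2.02, 2.40 and 2.10 with SMARTA cells (1.46 ± 0.21). Inside Rttn, which encodes the centriole protein rotatin, they were 1.42, 1.28 and 1.45 and then 2.57, 2.77 and 3.19 (1.52 ± 0.22). The poorly described genes, Gm46319 and 4932438H23Rik, had members with differences of 1.95 ± 0.23 and 2.26 ± 0.27.

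A member at chr3:115801470-115801870 was assigned to Dph5, which acts in the diphthamide modification of elongation factor 2, at a distance of 86.2 kb. S1pr1, the sphingosine-1-phosphate receptor by which T cells leave tissue, was nearly as close, at 86.4 kb on the other side. Its accessibility was 1.42, 1.66 and 1.65 without and 2.77, 3.12 and 3.15 with SMARTA cells, a difference of 1.46 ± 0.20. A second member stood 8.82 kb from S1pr1, at 0.30, 0.31 and 0.54 without and 0.98, 1.91 and 1.18 with SMARTA cells. The groups were apart in both, but in the nearer one replicate 2 with SMARTA cells was the highest, and the difference of 1.05 ± 0.30 was 0.73 without it.

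**Figure D4:**
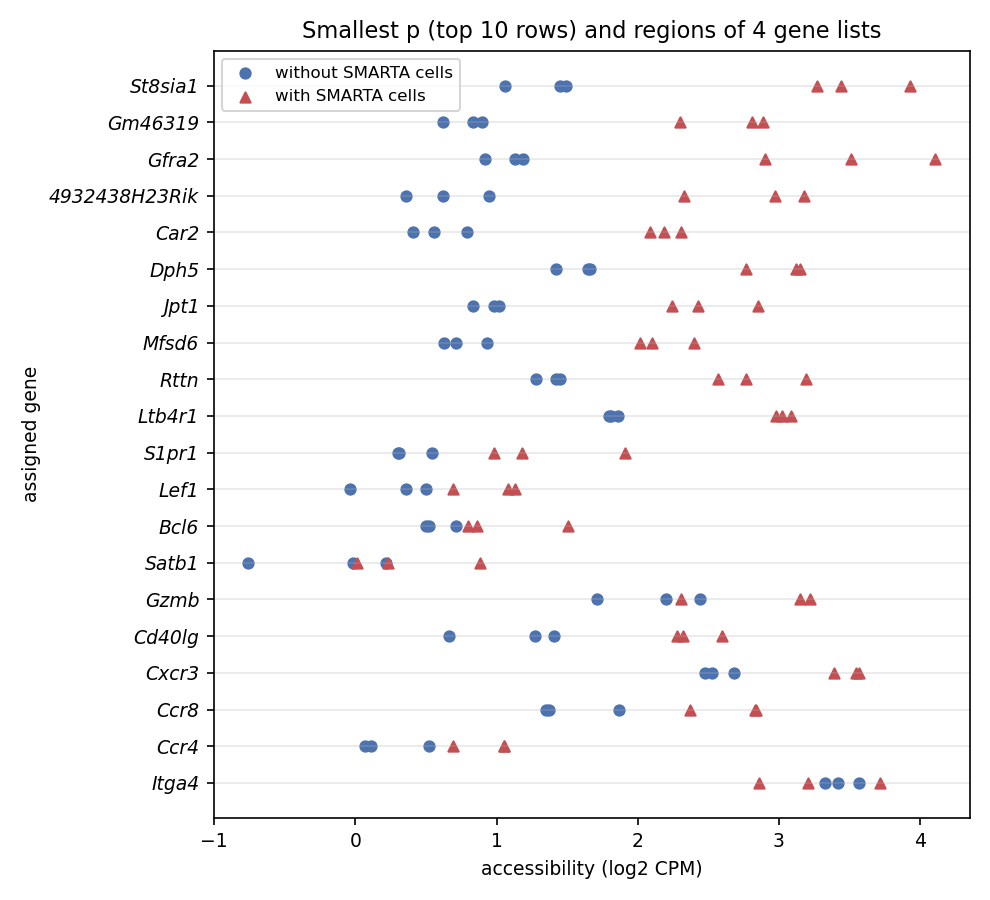
Accessibility (log2 CPM, horizontal axis) in each of the 3 libraries without (circles) and 3 with SMARTA cells (triangles), for the 10 members of smallest p (upper rows, St8sia1 to Ltb4r1) and for those of 4 gene lists: naive and memory genes, cytotoxic molecules, costimulation, and chemokine receptors. The groups are separate in the upper 10 rows and overlap at Satb1, Gzmb and Itga4.

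At trafficking receptors the groups were apart in some members and overlapped at Itga4. Of 303 regions at 24 chemokine receptor and migration genes, 4 were members (1.32%), beside 0.797% of the whole table. Cxcr3 encodes the receptor for the interferon-induced chemokines CXCL9 and CXCL10. Its member, chrX:101734950-101735350, 0.803 kb from the gene on its upstream side, was at 2.68, 2.48 and 2.53 without and 3.57, 3.39 and 3.55 with SMARTA cells (0.95 ± 0.18). The highest library without SMARTA cells was well below the lowest with them. Ccr8, a receptor found on tissue T cells, had a member 7.32 kb upstream, with Cx3cr1 the next gene at 16.1 kb. It was at 1.37, 1.35 and 1.87 without and 2.84, 2.83 and 2.37 with SMARTA cells (1.17 ± 0.23), again with no overlap. The Ccr4 member, 2.47 kb from the gene, differed by 0.75 ± 0.27. At Itga4, the alpha-4 integrin chain, values were 3.57, 3.33 and 3.42 without and 3.21, 3.72 and 2.86 with SMARTA cells. Replicates 1 and 3 with SMARTA cells were below every library without them, replicate 2 was above, and the difference was -0.15 ± 0.23. Ltb4r1 and S1pr1, receptors for a leukotriene and a sphingolipid, are not in this list. Ltb4r1 was named by other parts of the rule, and S1pr1 as a gene of the naive, memory and progenitor list. Whether members favour trafficking receptors was not tested.

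At costimulatory genes 1 of 204 regions was a member (0.490%). It lay 24.5 kb from Cd40lg, the ligand by which T cells license dendritic cells and B cells, at 0.66, 1.41 and 1.27 without and 2.32, 2.28 and 2.60 with SMARTA cells (1.28 ± 0.23). The groups did not overlap. Cd40lg is best known from CD4 T cells and is also in the CD4 marker list, whose summed CPM is given above. Of the 23 regions in that sum 14 belong to Cd40lg, this member among them, so the sum is no separate measure of CD4 T cells. Called opened were 4 of the 23 regions and 4 of the 14. Among 538 regions of 25 naive, memory and progenitor genes, 4 were members (0.743%), near the 0.797% of the whole table. Beside S1pr1 these were at Lef1, a factor of naive and stem-like T cells (0.74 ± 0.28), Bcl6, a repressor of effector differentiation (0.53 ± 0.28), and Satb1, a genome organizer (0.59 ± 0.39, with the groups overlapping). Without replicate 2 with SMARTA cells the differences at Bcl6 and Satb1 were 0.27 and 0.30. In the same list 21 regions (3.90%) were in the opposite class, against 3.59% of the table.

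At cytotoxic genes 1 of 149 regions was a member (0.671%), and at effector differentiation genes 3 of 319 (0.940%), both near the 0.797% of the whole table. The cytotoxic member lay 3.76 kb from Gzmb, which encodes granzyme B, at 2.44, 2.20 and 1.71 without and 3.15, 2.31 and 3.22 with SMARTA cells (0.83 ± 0.28). Replicate 2 with SMARTA cells lay among the libraries without them. The effector differentiation members were near Bhlhe40 (0.79 ± 0.35), inside Runx3 (0.33 ± 0.21) and inside Il12rb2 (0.15 ± 0.19), and the groups overlapped in all 3. There were 0 members among the 260 regions of exhaustion transcription factors and 0 among the 176 regions of inhibitory receptors, lists that held 32 (12.3%) and 8 (4.55%) regions of the opposite class, against 3.59% of the table. Interferon response genes (101 regions) and cell cycle genes (146 regions) held 0 members as well. Members are 0.797% of the table, so a count of 0 in lists of these sizes is not read as a result.

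The T cell receptor signalling list was among the largest, with 536 regions beside 538 in the naive, memory and progenitor list. Some small marker lists held a higher share of members, such as 1.92% of 104 regions for CD8 T cells. By number, T cell receptor signalling genes held the most members of any list, 8 (1.49%, beside 0.797% of the whole table), at Malt1, Lcp2, Themis and 4 other genes. Their differences ran from 0.19 to 0.80 with a median of 0.46, below the 0.71 of all members, and 0 of the 8 were called opened, beside 33.9% of all members and 4.68% of all regions. Of the list's 536 regions 10 were called opened and 87 closed. Lcp2 encodes the adaptor SLP-76. The member 24.4 kb from it was at 0.47, 0.07 and 0.27 without and 0.50, 1.69 and 0.67 with SMARTA cells (0.80 ± 0.36). Replicate 2 carried that value, which was 0.34 without it. The paracaspase gene Malt1 held 2 members, the stronger at 1.47, 0.44 and 1.02 without and 1.70, 2.02 and 1.40 with SMARTA cells, and those groups overlapped.

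Regulators of the cytoskeleton held 6 members of 467 regions (1.28%, beside 0.797% of the whole table), with differences from 0.39 to 1.57. Tiam1, an exchange factor that activates RAC, held 2 of them. The stronger was at 0.71, -0.16 and -0.06 without and 1.05, 1.51 and 2.21 with SMARTA cells (1.57 ± 0.36), with the groups apart and the libraries widely spread. Vav2, another exchange factor, had a member at 0.50, 2.16 and 0.83 with SMARTA cells. Its difference of 1.25 ± 0.43 was 0.59 without replicate 2. Arhgap26, which encodes a GTPase-activating protein, differed by 0.77 ± 0.23, and Dock2, which drives lymphocyte migration, by 0.61 ± 0.26 (0.37 without replicate 2 with SMARTA cells).

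The remaining lists held 1 to 3 members each, except those of B cell, myeloid, and stromal and endothelial genes, which held 0. Hk2 encodes hexokinase 2, an entry enzyme of glycolysis, and the member 0.905 kb upstream of it was at 2.30, 2.52 and 2.83 without and 3.62, 3.50 and 3.62 with SMARTA cells (1.02 ± 0.20). Ldlrad4 encodes a membrane protein that restrains TGF-beta signalling, and its member was at 0.25, 0.17 and 0.54 without and 1.56, 1.28 and 1.50 with SMARTA cells (1.18 ± 0.24). The groups were apart in both regions. Scd2, a fatty acid desaturase gene of the same metabolism list as Hk2, had a member at 0.47, -0.22 and 0.32 without and 0.39, 1.39 and 1.15 with SMARTA cells (0.87 ± 0.34), and there the groups overlapped. Batf3, an AP-1 family factor of dendritic cells that T cells also use, had a member 5.98 kb away at 1.31, 0.77 and 0.54 without and 2.40, 1.63 and 1.73 with SMARTA cells (1.10 ± 0.29). Hdac4, a histone deacetylase, differed by 1.06 ± 0.33, and by 0.68 without replicate 2 with SMARTA cells. The members in Jak1 and Il21r, of the cytokine receptor list, had differences of at most 0.18. At marker genes of cell types, single members lay 12.8 kb from Cd8a (0.36 ± 0.26), 15.5 kb from the NK cell gene Klrb1c (0.60 ± 0.19) and 6.70 kb from the melanoma gene Dct (0.40 ± 0.35), and the groups were apart only at Klrb1c among these 3.

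Members were scattered over genes. The 554 members with a protein-coding gene within 100 kb belonged to 512 genes: 474 had 1 member, 34 had 2 and 4 had 3. Only 23 members lay within 10 kb of another. Rph3al, which encodes a RAB effector of granule secretion, was among the 4. Its members were at 1.22, 1.19 and 1.65 without and 2.02, 3.15 and 2.76 with SMARTA cells (1.37 ± 0.29), at 0.91, 0.95 and 1.02 and then 1.61, 1.74 and 1.98 (0.85 ± 0.20), and at 1.02, 0.02 and -0.41 and then 1.28, 1.45 and 1.73 (1.25 ± 0.36). In each of them the groups were apart, and 7 of the gene's 17 regions were called opened and 0 closed. Plxna1, a semaphorin receptor gene, had 3 members between 50.6 and 61.4 kb away, with differences of 1.02, 1.20 and 1.27. The last 2 of these were 0.75 and 0.71 without replicate 2 with SMARTA cells. Sntb1 (0.63, 0.44 and 0.29) and Atxn1 (0.30, 0.33 and 0.02) also held 3, with small differences.

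Among genes with 2 members, Znrf1, a ubiquitin ligase gene, had differences of 1.56 ± 0.23 and 0.85 ± 0.25, and 9 of its 17 regions were called opened and 0 closed. Fyco1, which links autophagosomes to microtubule transport, had 1.57 ± 0.24 and 0.96 ± 0.19. Both of its members sit in a cluster of chemokine receptor genes, the first 8.76 kb from Cxcr6 and the other 17.7 kb from Xcr1. The first was at 1.06, 1.21 and 1.19 without and 2.37, 3.13 and 2.46 with SMARTA cells. Itpr1, the calcium release channel of the endoplasmic reticulum, had 1.24 ± 0.23 and 1.16 ± 0.25. Evl, an actin regulator, had 1.28 and 0.88, and Focad had 1.70 ± 0.31 and 0.73 ± 0.35, the latter 0.40 without replicate 2 with SMARTA cells.

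Position was not used by the rule. Within 2 kb of a gene boundary lay 70 members (11.8%), against 24.6% of all regions and 9.63% of the opposite class. Off chromosome 18, for which the promoter table has no entry, 5 of 576 members (0.868%) overlapped a promoter window, against 13.2% of all regions and 2.43% of the opposite class. Inside a gene were 56.3% of members, 57.4% of all regions and 56.5% of the opposite class. No gene was within 100 kb of 41 members (6.89%). Members and the opposite class thus had lower shares at promoters and gene boundaries than the table as a whole, with no test made of these shares.

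**Figure D5:**
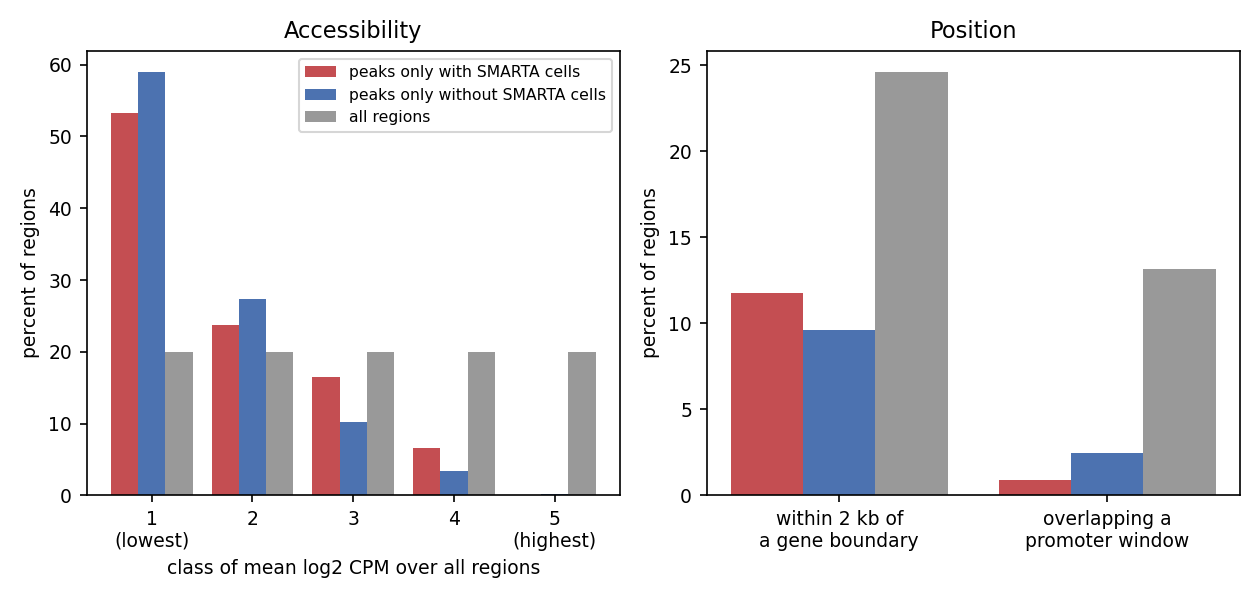
Left, percent of regions in 5 equal classes of mean log2 CPM over all regions, for members, the opposite class and all regions; right, percent within 2 kb of a gene boundary and percent overlapping a promoter window. Members fall mostly in the lowest class (53.3%) and are near a gene boundary in 11.8%, against 24.6% of all regions.

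Accessibility gave the same picture for both classes. With all regions divided into 5 equal classes of mean log2 CPM, 317 members (53.3%) fell in the lowest class and 0 in the highest, as did 59.0% and 0.149% of the opposite class. Chromosome Y held 0 members among 6 regions. On the other chromosomes the share of regions that were members ran from 0.587% on chromosome 3 to 1.14% on chromosome 7, where there were 54. Among all 15459 genes with any region, 1845 held a region of the opposite class. Of the 512 genes with a member, 132 (25.8%) did, with no account taken of the number of regions per gene. These 132 were 7.15% of the 1845 genes with such a region, and in them peaks of both kinds stood at 1 gene.

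The 6 members with a negative difference show what the peak rule alone can pick. Rgs16, which dampens chemokine receptor signalling, had a member at 2.95, 2.96 and 2.80 without and 2.72, 2.14 and 2.38 with SMARTA cells (-0.47 ± 0.20), and there all libraries with SMARTA cells were the lower ones. The others were Itga4, Osbpl9 (-0.13), a region assigned to Prss2 (-0.10), an unassigned region on chromosome 2 (-0.07) and Ggta1 (-0.02). With scaling that follows accessibility, Osbpl9, the unassigned region and Ggta1 turned to 0.07, 0.12 and 0.18, and Rgs16 stayed at -0.35.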

How the data were processed

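The libraries were ATAC-seq of sorted OT1 cells, 3 per group; sample titles gave the groups and the replicate numbers. The authors deposited whole-number read counts per region for all libraries, with no normalization, and 1 peak list per library. Per the file columns, each peak has a score, a ratio of signal to local background (fold enrichment), and −log10 p and −log10 q values, all given by the authors' peak caller. The submitters' processing notes name the build GRCm38 and the tools DiffBind 3.4.11, MACS2 2.1.1, BWA 0.7.17, Picard 2.18.9 and SAMtools 1.8. How these were set, whether duplicates were removed and reads shifted, and how regions were merged is not given in the sources used here; duplicates left in would inflate counts. Of the members, 587 span 401 bases.

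The counts as deposited were fitted over all 74686 regions with edgeR 4.0.16 in R 4.3.3: TMM scaling, filterByExpr, glmQLFit and glmQLFTest, Benjamini-Hochberg adjustment, threshold 0.05. The SE is the size of the log2 difference over the root of the F statistic. The code was tested on simulated data. Peak starts were moved from 0-based to 1-based. A region was assigned to the protein-coding RefSeq gene (GRCm38.p6) that holds its midpoint, or else to the nearest within 100 kb; this says nothing on which gene a region controls. Exons and introns were not distinguished, and no genome sequence was used here.

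Members were named by 1 rule: the 10 of smallest p, the genes with most members, up to 4 genes of each gene list, the 5 with the strongest peaks, those overlapping a promoter window, and those nearest the limit of the rule. The members, the gene lists and the rule were chosen with earlier results of these data known. Other scalings, DESeq2 1.42.0, other filters, a replicate block, left-out libraries, peak thresholds and overlaps were tried as alternatives. Per the labels, nothing pairs the groups beyond the replicate number.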

Additional observations from a re-analysis of the deposited data

How the results depend on the processing

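The median difference of members was positive under every setting, and counts depended on it. With scaling that follows accessibility, 393 members were called opened in place of 202, the median difference was 0.94 and 533 members had groups apart; over all regions it gave 5198 opened and 6768 closed in place of 3497 and 7767. The cause was not tested. Leaving out 1 library gave 6074 to 12669 called regions, 75 to 179 opened members, a median of 0.58 to 0.81, 380 to 500 members with groups apart, and, in the rule itself, 750 to 1782 members. A −log10 q of at least 5 in the lists with SMARTA cells alone left 303 members. Within 1 kb of a gene boundary were 6.05% of members, and within 5 kb 23.2%. Over all regions, deviations from the group means had r = -0.02, -0.08 and 0.08 between same-numbered libraries. Between differently numbered ones r was -0.11 to 0.09. Whether same-numbered libraries shared a batch was not tested. With the replicate block 150 members were opened and the median was 0.70. DESeq2 called 216. Under DESeq2, the filters and the block, groups apart has no value of its own. Of 949 alternative values of named members, 18 moved beyond the spread and 0 of the called ones reversed, while small differences could change sign (Als2cl -0.03 at the lowest, Itga4 0.06 at the highest, with 1 library left out). Members hold few counts, which limits the precision of single values.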

Other observations

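Some members were well accessible in both groups, a set chosen after its values were seen. In 15 members the mean was at least 3 log2 CPM without SMARTA cells, and 9 of these had groups apart, beside 61.8% of all members and 15.7% of all regions. The most accessible one, assigned to Prss2 at 18.3 kb, lies at chr6:41543335-41543735 in the T cell receptor beta locus, over the joining segments Trbj2-4 and Trbj2-5. It was at 4.15, 3.97 and 3.84 log2 CPM without and 4.05, 3.70 and 3.92 with SMARTA cells, and the groups overlapped. Its peaks had deposited fold enrichments of 1.55, 1.46 and 1.46.

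Of the others, 4 examples are given, likewise chosen after their values were seen. Inside Fli1, an ETS family factor gene, the means were 3.95 ± 0.16 without and 4.27 ± 0.35 with SMARTA cells (SD, n = 3). Near Zfp36, which encodes an RNA-destabilizing protein that limits cytokine messages, they were 3.92 ± 0.12 and 4.32 ± 0.13. Inside Lmnb1, a nuclear lamina gene, they were 3.72 ± 0.15 and 4.21 ± 0.08, and inside Bcl11b, a factor of T cell identity, 3.13 ± 0.03 and 3.53 ± 0.27. The groups overlapped at Fli1 and were apart at Zfp36, Lmnb1 and Bcl11b. In these 4 regions the deposited fold enrichments of the peaks with SMARTA cells ran from 1.45 to 2.27.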
